A study of Mus musculus with 12 samples.

Results

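The genes described here encode the proteins of the mitochondrial ribosome. They were taken as every row of the count tables whose symbol is Mrpl or Mrps followed by a number, with or without a letter a to c, which gave 77 of 35976 gene symbols. Of these, 48 are named for the large subunit (Mrpl) and 29 for the small subunit (Mrps). All 77 are annotated as protein-coding genes, and they lie on 17 chromosomes.

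The libraries were made from testes of Swiss (RjOrl) mouse embryos dissected at E15.5, the embryonic day counted from the mating. Pregnant dams had received thiacloprid (*thia*), a neonicotinoid insecticide, by gavage at 6 mg/kg/day, or the olive oil vehicle (dose 0), from E6.5 to E15.5. F1 embryos were exposed in the womb, whereas F3 embryos descended from them through males mated to untreated and unrelated females. The 4 groups, F1 control, F1 *thia*, F3 control and F3 *thia*, had 3 libraries each, and each library was a pool of the testes of 3 embryos. A pool is the unit of replication, so the p-values measure the spread between pools, and in a whole testis fewer cells of a type and less RNA per cell cannot be told apart.

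Mitochondria carry their own ribosome, which translates the few messengers made from mitochondrial DNA, all of which encode subunits of the respiratory chain and the ATP synthase. Its RNAs come from mitochondrial DNA, but every one of its proteins is encoded in the nucleus, made in the cytoplasm and imported. One class of these proteins descends from the bacterial ribosome, and a second class was added in the mitochondrial lineage. The genes are used in every tissue, and many of their promoters are bound by the nuclear respiratory factors NRF1 and GABP, an ETS family factor, and by YY1.

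By this division, 30 of the large subunit genes are bacterial homologues and 18 are specific to mitochondria, against 16 and 13 in the small subunit. The symbols do not match the assembled particle in every case. Mrps30 and Mrps18a lie in the large subunit of the solved structures, and Mrps36 was later assigned to the 2-oxoglutarate dehydrogenase complex.

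Promoters are shown for Mrps14, for the 5 genes with the smallest p in F3 whose window from 150 bases before to 30 bases after the start held a match to NRF1 (GCGC and TGCGC with any 1 base between them), ETS (CCGGAAG) or YY1 (AAGATGGCG) on either strand, and for Mrps12, the gene with a match whose level was not lower in F3 *thia*. They come from RefSeq (GRCm38.p6), are written 5′ to 3′ on the strand of the gene, and carry the match in capitals. In order they lie at chr1:160195065-160195244 (+), chr11:120484487-120484666 (+), chr9:105053118-105053297 (+), chr11:88204238-88204417 (+), chr5:31613801-31613980 (+), chr11:94653641-94653820 (+) and chr7:28741792-28741971 (-).
Mrps14: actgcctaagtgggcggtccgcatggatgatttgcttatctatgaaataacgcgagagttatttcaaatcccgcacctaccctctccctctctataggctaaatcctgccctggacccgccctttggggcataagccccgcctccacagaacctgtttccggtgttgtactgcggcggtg
Mrpl12: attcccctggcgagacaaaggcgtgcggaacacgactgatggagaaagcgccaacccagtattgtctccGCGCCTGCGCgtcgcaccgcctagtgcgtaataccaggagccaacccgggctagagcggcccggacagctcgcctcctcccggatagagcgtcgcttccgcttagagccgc
Mrpl3: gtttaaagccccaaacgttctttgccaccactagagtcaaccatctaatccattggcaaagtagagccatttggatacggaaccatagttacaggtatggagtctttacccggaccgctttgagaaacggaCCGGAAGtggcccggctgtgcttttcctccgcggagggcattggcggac
Mrps23: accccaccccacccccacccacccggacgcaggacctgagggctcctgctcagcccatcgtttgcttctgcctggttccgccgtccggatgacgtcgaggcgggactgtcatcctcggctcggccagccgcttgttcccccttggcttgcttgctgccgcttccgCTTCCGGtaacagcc
Mrpl33: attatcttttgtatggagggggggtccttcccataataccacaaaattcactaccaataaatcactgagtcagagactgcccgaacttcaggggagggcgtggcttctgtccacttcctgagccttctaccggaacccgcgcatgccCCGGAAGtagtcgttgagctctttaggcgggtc
Mrpl27: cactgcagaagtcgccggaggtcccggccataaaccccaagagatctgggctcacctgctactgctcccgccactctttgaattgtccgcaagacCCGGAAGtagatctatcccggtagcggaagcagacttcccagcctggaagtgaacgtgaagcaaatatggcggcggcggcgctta
Mrps12: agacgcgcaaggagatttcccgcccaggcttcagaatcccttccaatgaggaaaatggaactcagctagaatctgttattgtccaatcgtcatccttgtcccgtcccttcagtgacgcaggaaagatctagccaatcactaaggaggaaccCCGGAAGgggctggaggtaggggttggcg
The window of Mrpl12 held the NRF1 letters and those of Mrpl3, Mrps23, Mrpl33, Mrpl27 and Mrps12 the ETS letters. The window of Mrps14 held no match. In the full RefSeq promoters, from 250 bases before to 50 after the start, 68 of the 77 genes had an entry. NRF1 letters were present in 19.1% of these 68, against 8.83% of 12397 protein-coding genes tested in F3. ETS letters were present in 35.3% against 15.2%, YY1 letters in 11.8% against 2.62%, and the TATA letters TATAAA in 5.88% against 8.15%. The 2 comparators of the same kind differed from each other in these shares, with NRF1 letters in 24.7% of 73 respiratory chain promoters and in 7.81% of 64 promoters of cytoplasmic ribosomal proteins. In the same order, ETS letters were present in 21.9% and 39.1%, the latter above the share of the genes described here. YY1 letters were present in 8.22% and 6.25%, and TATA letters in 9.59% and 10.9%. A match describes the letters of the window and not the binding of a factor.

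The libraries held between 25081647 and 68996146 assigned counts. The 77 genes took 0.384 to 0.440% of the counts in F1 control, 0.393 to 0.434% in F1 *thia*, 0.433 to 0.452% in F3 control and 0.357 to 0.394% in F3 *thia*. None was at 0 in any library, the lowest count being 316, and all 77 passed the filter on low counts in each comparison. F3 *thia* replicate 2 stood apart from the other F3 libraries, at 46.9 along the first principal component of the F3 libraries, where the other 5 lay between -23.8 and 11.4. Along the first component of the F1 libraries, F1 control replicate 3 was at 31.9 and the other 5 lay between -18.2 and 8.20. Markers of germ cells, Sertoli cells and Leydig cells, the defining cells of the testis, were detected in every group.

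Per kilobase of exon, the genes spanned a wide range of levels. The median over the 12 libraries was 37.5 CPM per kb (CPM being counts scaled to the TMM-adjusted library total), 39.1 for large and 35.9 for small subunit genes. Mrpl52 was the highest at 137 CPM per kb, followed by Mrpl23, a protein of the exit tunnel region, at 126 and Mrpl33 at 110. Mrps25 was the lowest at 6.46 CPM per kb, next to Mrpl19 at 6.90. Exon lengths ran from 418 to 7300 nt with a median of 1280 nt, so the order without division by length was different.

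The first comparison asked whether direct exposure in the womb was accompanied by a change of these genes in F1. No gene passed at an adjusted p under 0.15 with edgeR, the level used for F1, and none passed with DESeq2. Over all 19137 genes tested, 0.00523% were called higher and 0.00523% lower by edgeR, against 0.488% and 0.525% by DESeq2. At an unadjusted p under 0.05, 1 of the 77 genes was higher, Mrps14, and none was lower, against 4.63% and 4.13% of all genes. The fold changes were small, with 56 genes above and 21 below zero (52.0% of all genes were above) and a median log2 fold change of 0.04, against 0.01 for all genes tested. The median was 0.05 for the large and 0.02 for the small subunit. The count below zero depended on single libraries, at 44 without F1 control replicate 3 and 39 without F1 *thia* replicate 3, and that at an unadjusted p under 0.05 lay between 0 and 3 without 1 library.

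Mrps14, a small subunit protein with a bacterial homologue, was at 44.7, 45.2 and 39.4 CPM in F1 control and at 51.0, 49.5 and 59.0 CPM in F1 *thia*. All 3 *thia* pools were above all 3 controls, with a log2 fold change of 0.32 (SE 0.104, adjusted p = 0.513, edgeR). With the F1 libraries scaled on their own, it was the only one of the 77 genes whose groups did not overlap (7.47% of all genes had all *thia* libraries above all controls and 6.89% below). Mrps28, Mrpl46 and Mrps18a came next, with log2 fold changes of 0.27 (SE 0.163), 0.23 (SE 0.128) and 0.23 (SE 0.124) and overlapping groups. At the other end, Mrpl44 had -0.15 (SE 0.0953), Mrps22 -0.15 (SE 0.0965) and Mrps10 -0.17 (SE 0.342).

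The second comparison asked the same in F3, whose embryos were never exposed directly. Almost all of these genes were lower in F3 *thia* than in F3 control, by a similar small amount in both subunits, and no single gene passed the adjusted threshold with edgeR, while DESeq2 called 27 of them. The log2 fold change was below zero for 75 of 77 genes, against 49.4% of the 18539 genes tested. The 75 were all 48 large subunit genes and 27 of 29 small subunit genes. The median log2 fold change was -0.24, a difference of -15.1%, against 0.00 for all genes tested. It was -0.24 for the large subunit and -0.22 for the small subunit.

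No gene was called at an adjusted p under 0.1 with edgeR, nor was any of all genes tested (0% in either direction), and the lowest adjusted p among the 77 was 0.101. At an unadjusted p under 0.05 edgeR gave 43 genes lower and 0 higher, 28 large and 15 small, where 10.0% of all genes were lower at that level. All 3 *thia* libraries were below all 3 controls for 49 genes (32 large and 17 small) and above them for 0, against 14.3% of all genes below. The 27 that DESeq2 called lower at an adjusted p under 0.1 were 18 large and 9 small subunit genes, where it called 5.70% of all genes lower. With all 12 libraries in a single edgeR fit, which shares the estimate of spread over the 4 groups, 21 were called lower, against 3.99% of all genes. With edgeR on the F3 libraries alone, upper quartile scaling gave 12 lower (1.68% of all genes), no filter 7 (0.661%) and a filter of at least 10 counts in every library 8 (1.06%). Without F3 *thia* replicate 2, edgeR called 12 lower, against 2.59% of all genes, and without F3 control replicate 1 the count at an unadjusted p under 0.05 was 27.

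**Figure D1:**
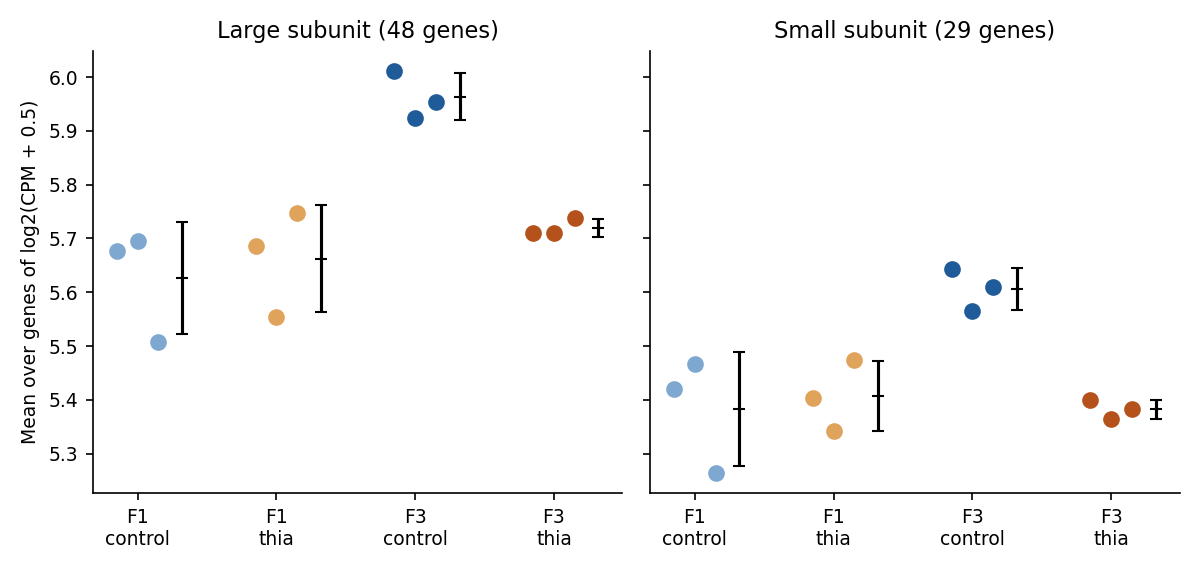
Mean of log2(CPM + 0.5) over the 48 large (left) and 29 small (right) subunit genes in each library, with 1 point per library and a bar for the mean ± SD of the 3 libraries of a group. The vertical axis does not start at 0. The 3 F3 control libraries lie above the 9 others in both panels, and F3 *thia* lies inside the range of F1.

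The mean of log2(CPM + 0.5) over the 77 genes showed the same in each library. It was 5.87, 5.79 and 5.82 in F3 control and 5.59, 5.58 and 5.60 in F3 *thia*. The F3 groups were apart by more than their spread, with an SD of 0.0416 in control and 0.0123 in *thia*, and *thia* replicate 2 was not apart from the other *thia* libraries in this measure. In F1 the values were 5.58, 5.61 and 5.42 in control and 5.58, 5.47 and 5.64 in *thia*, and the groups overlapped. The 3 F3 *thia* libraries thus lay between the lowest and the highest F1 library.

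Mrpl1, Mrps14, Mrpl12 and Mrpl11 were among the genes with the clearest separation in F3. Mrpl12 (chr11:120484613-120489065) is a protein of the stalk that receives translation factors and is also known to bind the mitochondrial RNA polymerase. It was at 136, 132 and 131 CPM in F3 control and at 91.9, 99.8 and 99.8 CPM in F3 *thia*, with a log2 fold change of -0.46 (SE 0.0688, adjusted p = 0.101, edgeR; adjusted p = 0.000234, DESeq2). No *thia* pool reached the lowest control.

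Mrps14 (chr1:160195215-160202170) was at 67.4, 63.6 and 63.7 CPM in F3 control and at 42.2, 49.6 and 43.4 CPM in F3 *thia*. Its log2 fold change was -0.53 (SE 0.0837, adjusted p = 0.101, edgeR). The F3 groups did not overlap, and their order was the opposite of that in F1.

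Mrpl1 (chr5:96209493-96266727), a protein of the opposite, mobile stalk, was at 82.5, 70.4 and 66.9 CPM in F3 control and at 50.2, 48.6 and 49.7 CPM in F3 *thia*. The log2 fold change was -0.57 (SE 0.0894, adjusted p = 0.101, edgeR), the most negative of the large subunit. Mrpl11 (chr19:4962147-4966999), which belongs to the centre where translation factors hydrolyse GTP, was at 103, 93.1 and 87.4 CPM in control and at 68.2, 65.2 and 72.5 CPM in *thia*. Its log2 fold change was -0.46 (SE 0.0830, adjusted p = 0.105, edgeR), again without overlap. Mrpl28 at -0.36 (SE 0.0664) and Mrpl13 at -0.34 (SE 0.0676) had groups that did not overlap either.

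**Figure D2:**
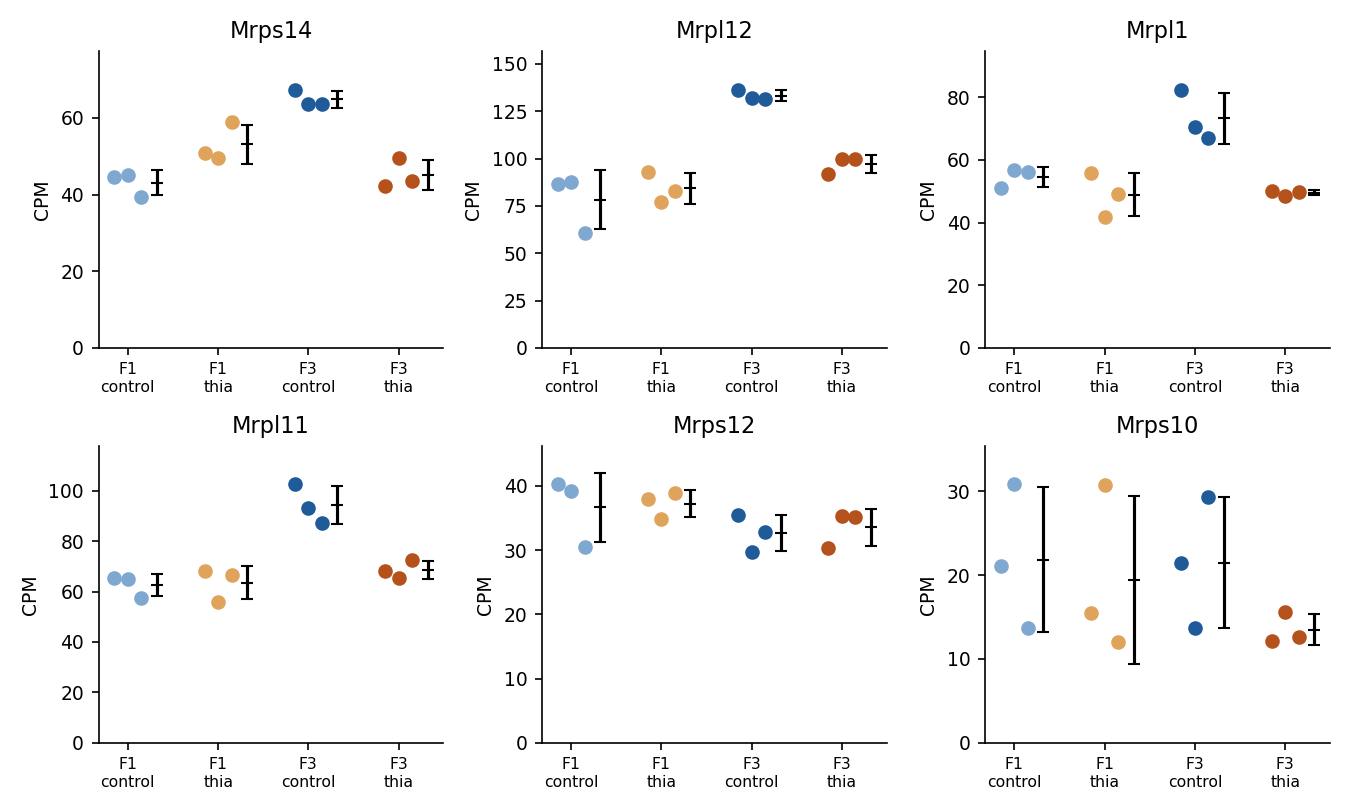
Level of 6 genes in each library in CPM (vertical axis from 0), with 1 point per library and a bar for the mean ± SD of the 3 libraries of each group. In Mrps14, Mrpl12, Mrpl1 and Mrpl11 all F3 *thia* points lie below all F3 control points, in Mrps12 the F3 groups overlap, and in Mrps10 the libraries of a group are scattered.

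Only Mrps28 and Mrps12 had a log2 fold change above zero in F3. Mrps12, a protein of the decoding centre, was at 35.4, 29.7 and 32.9 CPM in F3 control and at 30.3, 35.2 and 35.2 CPM in F3 *thia*, which overlapped (log2 fold change 0.04, SE 0.104). Mrps28 had 0.05 (SE 0.124), and Mrps2, next in order, had -0.01 (SE 0.0913). All 3 signs turned in some fits without 1 library.

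Mrps10 had the most negative log2 fold change, -0.68 (SE 0.266, adjusted p = 0.206, edgeR), but its groups overlapped. It was at 21.4, 13.7 and 29.4 CPM in F3 control and at 12.2, 15.6 and 12.7 CPM in F3 *thia*. The scatter was as wide in F1, running from 13.6 to 30.8 CPM in control and up to 30.8 CPM in *thia*. Its SD within groups was 0.53 on the log2 scale, the highest of the 77 genes, whose median SD was 0.12.

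The Mrps18 paralogs gave different values. Mrps18c had a log2 fold change of -0.32 in F3 (SE 0.0758, adjusted p = 0.108, edgeR) with groups that did not overlap. Mrps18a had -0.20 (SE 0.0873) and did not overlap either, at 56.9, 61.4 and 56.8 CPM in control and 55.5, 45.7 and 51.1 CPM in *thia*. Mrps18b had -0.09 (SE 0.105) with overlapping groups. Differences between the paralogs were not tested.

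Around the peptidyl transferase centre and the exit, Mrpl27 had -0.27 (SE 0.0696) and Mrpl23 -0.33 (SE 0.108), both without overlap of the F3 groups, whereas the groups of Mrpl45, which holds the ribosome at the inner membrane, overlapped at -0.23 (SE 0.130). RefSeq lists pseudogenes named for Mrpl23, Mrpl27, Mrpl48 and Mrps36, and reads shared with them make these 4 values less certain. Mrps30 had -0.11 (SE 0.0678) and Mrps36 -0.20 (SE 0.0977). With genes placed by structure in place of symbol, the F3 medians were -0.24 for 50 large and -0.25 for 26 small subunit genes.

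By origin, the F3 median was -0.27 for the 30 bacterial homologues of the large subunit, -0.21 for its 18 mitochondria-specific genes, and -0.22 and -0.25 for the 16 and 13 of the small subunit. By level, it was -0.21 for the 26 genes with the lowest CPM, -0.22 for the 25 in the middle and -0.26 for the 26 with the highest CPM. Genes with and without NRF1 letters in the promoter had medians of -0.25 (13 genes) and -0.23 (55 genes), for ETS letters both were -0.24 (24 and 44 genes), and for YY1 letters they were -0.20 (8 genes) and -0.24 (60 genes).

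**Figure D3:**
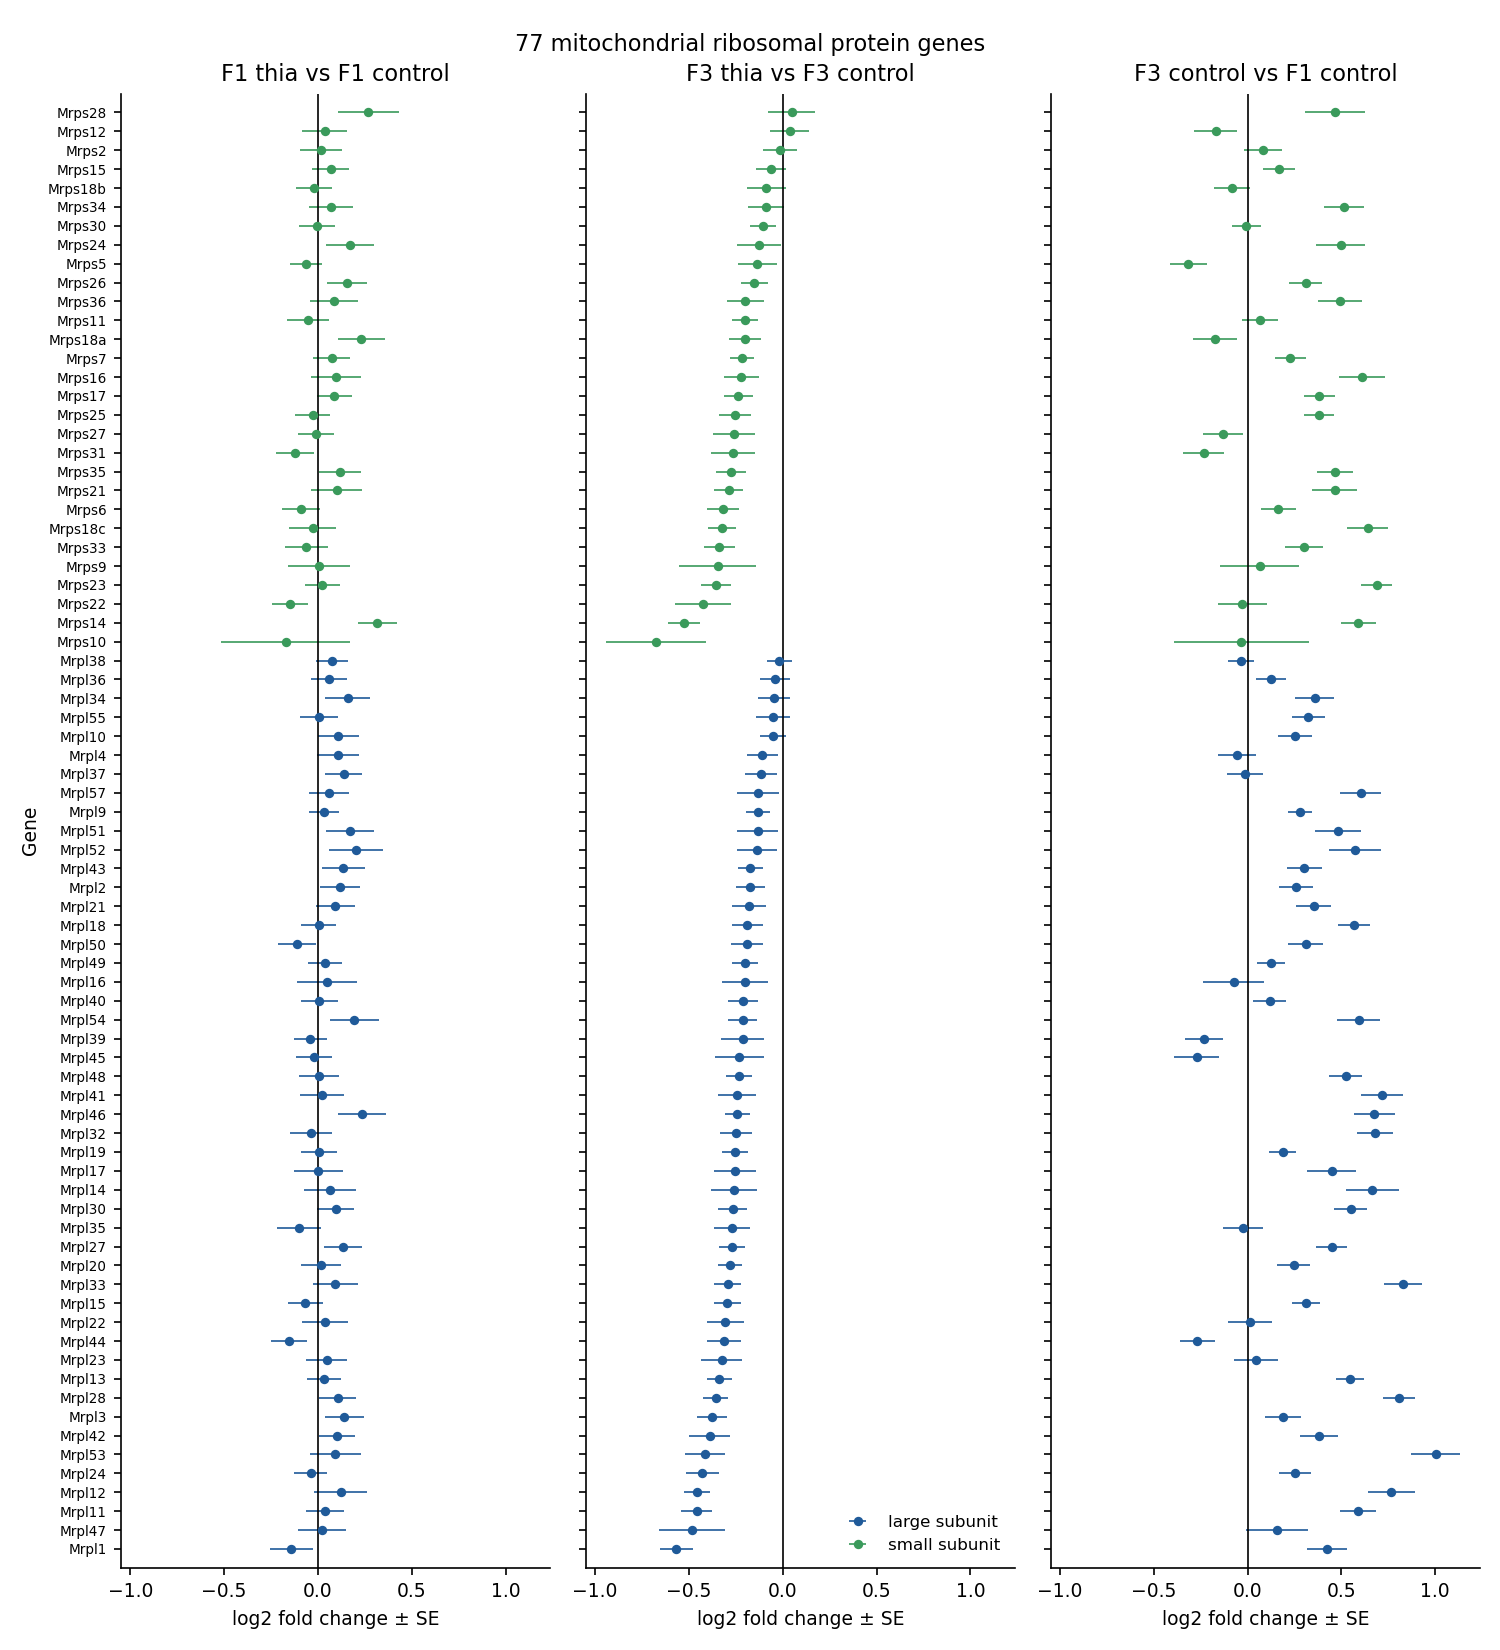
log2 fold change ± SE (edgeR, horizontal axis) of the 77 genes (vertical axis), ordered within each subunit by the F3 value, for *thia* against control in F1 (left) and F3 (middle) and for F3 control against F1 control (right). F1 values scatter around 0, 75 of 77 F3 values are negative, and 60 of 77 values between the control groups are positive. The middle and right panels share the F3 control libraries.

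The difference of the *thia* effects, F3 minus F1, was then fitted over all 12 libraries. It was negative for 76 of 77 genes, against 47.8% of the 19626 genes tested, with a median of -0.26 on the log2 scale (0.02 for all genes tested). With edgeR 0 genes were called at an adjusted p under 0.1 (0.00510% of all genes were called lower), and 25 had an unadjusted p under 0.05 with a negative value, against 6.10% of all genes. DESeq2 called 9, against 1.89% of all genes. Without F1 *thia* replicate 1, and also without F1 *thia* replicate 3, 16 had an unadjusted p under 0.05, and without F3 *thia* replicate 2 edgeR called 1 (0.00992% of all genes). The smallest p was that of Mrps14, with a difference of -0.83 (SE 0.132, adjusted p = 0.213, edgeR). Mrpl28 followed with -0.45 (SE 0.118), Mrpl3 with -0.50 (SE 0.135) and Mrpl11 with -0.48 (SE 0.134).

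The F3 controls themselves had higher levels of many of these genes than the F1 controls, and this comparison shares the F3 control libraries with the one in F3. At an adjusted p under 0.1 (edgeR, 12-library fit), 48 of the 77 genes were higher in F3 control and 3 were lower, where 19.9% and 22.4% of all genes tested were. The 48 comprised 33 large and 15 small subunit genes. Above zero were 60 genes, against 48.6% of all genes. The median log2 fold change was 0.31, against -0.02 for all genes tested. It was 0.32 for the large and 0.23 for the small subunit, the latter going to 0.15 without F1 control replicate 3. Generation cannot be told apart from anything else that differed between the F1 and F3 libraries.

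Mrpl53 rose the most, from between 26.1 and 34.9 CPM in F1 control to 67.4, 59.6 and 59.7 CPM in F3 control, a log2 fold change of 1.00 (SE 0.131, adjusted p = 0.000296, edgeR). Mrpl33 rose by 0.83 (SE 0.102), Mrpl28 by 0.81 (SE 0.0841), Mrpl12 by 0.77 (SE 0.124) and Mrps23 by 0.69 (SE 0.0839). Mrpl44, which binds RNA through a ribonuclease III fold, was 1 of the 3 genes that fell, at -0.27 (SE 0.0928, adjusted p = 0.0429, edgeR). The others, named after their values were seen, were Mrps5 at -0.32 (SE 0.0978) and Mrpl39 at -0.23 (SE 0.103), the latter only just within the threshold.

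All 3 F3 control pools were above all 6 F1 pools for 46 of the 77 genes, against 17.3% of all genes tested. For 16 genes all 3 F3 *thia* pools were above all 6 F1 pools (14.2% of all genes), and for 12 they were all inside the F1 range (21.2%). The highest group mean was in F3 control for 58 genes (26.8% of all genes), in F1 control for 11 (30.6%), in F1 *thia* for 7 (18.0%) and in F3 *thia* for 1 (24.7%). Of the 26 genes not called between the control groups, 12 had all F3 *thia* libraries below all F3 controls, against 12.7% of all 10407 genes not called there. The median F3 log2 fold change of the 26 was -0.21, and that of all genes not called there 0.00. Mrpl23 was such a gene, at 101, 95.1 and 81.7 CPM in F3 control and at 81.1, 65.5 and 75.4 CPM in F3 *thia*.

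The 2 subunits kept close to each other. The mean of large minus that of small subunit genes on the log2(CPM + 0.5) scale was 0.21 to 0.28 over the 6 F1 libraries and 0.31 to 0.37 over the 6 F3 libraries, so that all F3 values were above all F1 values. With subunits placed by structure the generations overlapped, at 0.22 to 0.30 in F1 and 0.29 to 0.33 in F3. Within a generation, control and *thia* overlapped, at 0.34 to 0.37 and 0.31 to 0.36 in F3.

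Fold changes depended on gene length over the whole transcriptome, and the genes described here are short. In F3 the median log2 fold change of all other genes went from -0.16 at exon lengths up to 1000 nt to 0.12 over 4000 nt. The mitochondrial ribosomal protein genes did not follow that course. Their median was -0.24 up to 1000 nt (25 genes) and -0.25 over 4000 nt (10 genes), and all 10 of the longest were lower, where 29.8% of other genes of that length were. After the trend with length was removed from all genes, 67 of 77 were lower and the median was -0.18, against -0.03 for all genes. It was then -0.16 for the large and -0.20 for the small subunit.

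Between the control groups the trend was steeper and ran the other way, from 0.41 up to 1000 nt to -0.23 over 4000 nt for other genes. The 77 genes followed it up to 2500 nt and were above it beyond, at 0.59 from 2500 to 4000 nt (9 genes) and 0.35 over 4000 nt (10 genes). After its removal the median between the control groups was 0.02, with 34 of 77 genes below zero, against -0.05 for all genes. The median of the difference of effects went from -0.26 to -0.13.

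**Figure D4:**
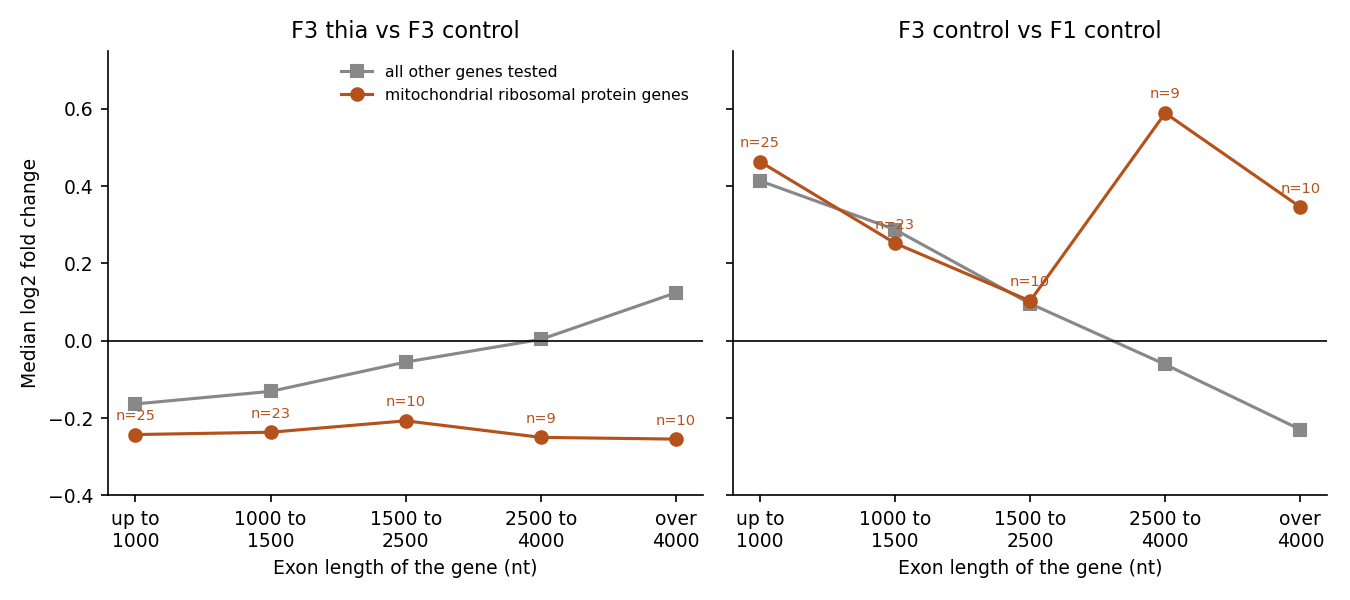
Median log2 fold change (vertical axis) of the mitochondrial ribosomal protein genes (circles, with their number) and of all other genes tested (squares) in 5 classes of exon length (horizontal axis), for F3 *thia* against F3 control (left) and F3 control against F1 control (right). In F3 the circles stay between -0.25 and -0.21 while the squares go from -0.16 to 0.12.

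No gene of the lists that work with the mitochondrial ribosome was called in F3 with edgeR at an adjusted p under 0.1. Nor was any of all 18539 genes tested. DESeq2 called 2 of 6 mitoribosomal proteins with other names, 4 of 24 assembly factors and 3 of 19 genes of mitochondrial DNA expression lower. Of 20 tRNA synthetases it called 1 higher and 1 lower. Over all 15218 genes with a DESeq2 adjusted p it called 5.70% lower. Among the 18539 genes tested with edgeR it called 1395 higher and 867 lower. Differences between these lists were not tested. All 6 mitoribosomal proteins with other names were lower, with a median log2 fold change of -0.20. Among them Chchd1 had -0.44 (SE 0.0816, adjusted p = 0.105, edgeR), Ict1 -0.30 (SE 0.0766) and Ptcd3 -0.18 (SE 0.0731), each without overlap of the groups. Aurkaip1 had -0.21, Dap3 -0.12 and Gadd45gip1 -0.08, with overlap.

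Of 24 assembly factors, 20 were lower (median -0.14), with Tfb1m, which methylates the small ribosomal RNA, at -0.48 (SE 0.110). Of 19 genes of mitochondrial DNA expression, 14 were lower (median -0.20), with the elongation factor Tefm at -0.60 (SE 0.104, adjusted p = 0.105, edgeR). The 11 mitochondrial translation factors and the 20 mitochondrial tRNA synthetases were lower in 9 and 13 cases, with medians of -0.12 and -0.10. In these 2 lists, 3 and 7 genes had all F3 *thia* libraries below all controls, as had 14.3% of all genes tested. In each list 2 genes had all F3 *thia* libraries above all controls, as had 2440 of all 18539 genes tested. They were Gfm1 (0.18), Gfm2 (0.17), Aars2 (0.34) and Mars2 (0.28), of which Gfm1, Gfm2 and Mars2 were named after their values were seen. Of 10 regulators of these genes, including Nrf1, Gabpa and Yy1, 9 were above zero with a median of 0.08, and none had an unadjusted p under 0.05. The factors whose letters were searched in the promoters had 0.02 (Nrf1), 0.05 (Yy1) and -0.06 (Gabpa).

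The cytoplasmic ribosomal proteins and the nuclear genes of the respiratory chain had similar values. Of 85 cytoplasmic ribosomal protein genes, 81 were lower in F3 *thia* (median -0.24), and of 92 respiratory chain genes tested 83 were lower (median -0.19). In F1 the medians were 0.17 with 80 of 85 genes above zero and 0.09 with 73 of 91 above zero, both larger than the 0.04 of the mitochondrial ribosomal protein genes. Between the control groups they were 0.75 and 0.44. Both lists are given for comparison, and differences between the lists were not tested.

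Marker levels of several cell types moved with the groups, and their part in these results was not tested. In F3 *thia* the summed level of 7 Leydig cell markers was 3899 to 7054 CPM against 2263 to 3708 CPM in control. That of 7 endothelial markers was 270 to 319 CPM against 201 to 221 CPM. That of 7 adrenal markers was 58.2 to 120 CPM against 40.5 to 58.1 CPM. All 3 sums were without overlap, but not every marker moved with its sum. Taken singly, 3 of the 7 Leydig markers were higher without overlap and 0 lower. Of the 7 endothelial markers 4 were higher and 1 was lower without overlap. None of the 7 adrenal markers separated the groups by itself, and their median log2 fold change was -0.15, against the direction of their sum. The medians of the Leydig and endothelial markers were 0.78 and 0.56. The 10 germ cell markers summed to 417 to 763 CPM in F3 *thia* and to 646 to 995 CPM in F3 control, which overlapped. Of these markers 3 were lower and 0 higher without overlap, with a median log2 fold change of -0.56. The interstitial sums overlapped as well, at 3630 to 5123 CPM in F3 *thia* and 3103 to 4206 CPM in F3 control. Of the 7 interstitial markers 3 were higher and 0 lower without overlap, with a median log2 fold change of 0.36. The 9 blood markers, including the globins, summed to 62382 to 67154 CPM in F3 control and 45467 to 83587 CPM in F3 *thia*, but to 5273 to 15565 CPM in F1 control. They were thus higher in F3 than in F1 control without overlap. Between the same control groups the interstitial, macrophage, mesonephros, ovary and skeletal muscle markers were also higher in F3 without overlap, with macrophage markers at 129 to 209 CPM against 65.9 to 77.9 CPM. The Sertoli markers (770 to 995 CPM against 1378 to 1640 CPM), the germ cell markers (646 to 995 CPM against 1063 to 1411 CPM) and the endothelial markers were lower without overlap. Some marker sums also separated *thia* from control in F1. Adrenal markers were lower, at 33.98 to 43.73 CPM in F1 *thia* against 49.13 to 66.41 CPM in F1 control. Macrophage (81.62 to 99.02 against 65.87 to 77.93 CPM) and mesonephros markers (150 to 191 against 131 to 144 CPM) were higher. So were interstitial markers (2856 to 3579 against 2579 to 2771 CPM), although their median log2 fold change was -0.03. The other F1 sums overlapped. No listed marker was at 0 in all libraries.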

How the data were processed

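Testis RNA was measured by RNA sequencing in 12 pools. From strand-specific libraries, the authors aligned paired reads to mm10 with HISAT2 2.1.0 (set to reverse strand) and deposited raw read counts per gene symbol from featureCounts, 1 table per sample; the strand and multi-mapping options of the counting step were not given in the sources used here. Groups came from the sample titles. No row without a gene name was present.

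Counts were tested with edgeR 4.0.16 in R 4.3.3 (quasi-likelihood test, TMM scaling, filterByExpr with a minimum count of 10, Benjamini-Hochberg adjustment over all genes tested), with F1 and F3 fitted separately and the difference of effects and the control groups fitted over 12 libraries. Thresholds were an adjusted p of 0.15 in F1 and 0.1 elsewhere. DESeq2 1.42.0 was an alternative, as were other scalings and filters, a replicate block, leaving out each library and removal of the trend with length (lowess, span 0.3, added after the data were seen). The procedure was tested on simulated data. CPM values are scaled over 12 libraries, and overlap of groups was read after scaling within each comparison. With 12-library scaling in its place, 48 genes had F3 *thia* below F3 control without overlap, and 1 gene was higher and 1 lower in F1. Exon lengths are unions of GENCODE M21 exons of transcripts with a RefSeq match (GRCm38), found for 94.6% of genes tested in F3. No 2 libraries of a group agreed within sampling noise.

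The genes and lists were chosen with earlier results of these data known. Named genes were, in F1 and F3, the 6 with the smallest p and the 3 most positive and 3 most negative fold changes; the 4 with the smallest p in the other comparisons; the 3 highest and 3 lowest per length; the Mrps18 paralogs; Mrps30 and Mrps36; 6 genes chosen by role; and at most 2 genes of a further list, except all mitoribosomal proteins with other names and the factors whose motifs were searched. Counting error was small at a lowest count of 316, and precision was limited by the spread between the pools of a group.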

Additional observations from a re-analysis of the deposited data

Results flagged for a closer look

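Mrps14 was the one named gene whose *thia* libraries were all above control in F1 and all below control in F3. The difference of the effects, F3 minus F1, was -0.83 on the log2 scale (SE 0.132). Its adjusted p was 0.213 with edgeR and 0.000159 with DESeq2, and lay between 0.000159 and 0.521 over the alternatives, so that the call depended on the test used.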

How the results depend on the processing

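For F3, 0 genes were called with edgeR, against 27 with DESeq2, 12 with upper quartile scaling, 7 with no filter, 8 with at least 10 counts in every library, 21 with all 12 libraries in one fit, and 0 to 12 with 1 library left out. In the same fits the F3 median stayed negative, and with 1 library left out it lay between -0.26 and -0.22, with 73 to 77 genes below zero and 27 to 43 at an unadjusted p under 0.05. For the difference of effects DESeq2 called 9, and leaving out 1 library gave 0 to 1 called and 16 to 36 at an unadjusted p under 0.05. Upper quartile scaling gave 40 at that level and medians of -0.33 (all and large) and -0.34 (small). Without 1 library the small subunit median of that difference lay between -0.30 and -0.19. In F1, leaving out 1 library gave 0 to 3 genes at an unadjusted p under 0.05 and 15 to 44 below zero.

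Between the control groups, upper quartile scaling moved the medians to 0.40 (all), 0.41 (large) and 0.32 (small), with 8 genes below zero; it moved the median of all genes by 0.09. With 1 library left out, 11 to 20 were below zero, 42 to 53 were called, and the small subunit median was 0.15 to 0.28. Removal of the trend with length, added after the data were seen, gave F3 medians of -0.16 (large) and -0.20 (small), so that the small subunit was then the lower. For the difference of effects it gave -0.13, -0.14 and -0.13 (all, large, small). Between the control groups it gave 0.0238, 0.0717 and -0.0140, and 34 genes were then below zero (42 in F1). Without length, the large over small ratio of median levels was 1.24. The cause of these changes was not tested.

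Near zero, signs turned for Mrps10 in F1 (-0.67 to 0.16 without 1 library) and in F3 for Mrps28 (-0.0184 to 0.151), Mrps12 (-0.0418 to 0.0969) and Mrps2 (-0.0854 to 0.0611, and 0.00323 with no filter). The deviations of same-numbered control and *thia* libraries had correlations of -0.03, -0.03 and 0.02 in F1 and 0.23, -0.42 and -0.27 in F3. Between differently numbered F3 libraries they ran from -0.43 (control 3 with *thia* 1) to 0.51 (control 3 with *thia* 2). Libraries were not treated as pairs in the main fits, and whether some shared a batch was not tested. The paper states that the breeding from F0 to F3 was repeated, so that each generation came from independent treatments. The sample titles do not assign the pools to these treatments. A replicate block gave 0 calls in F1, F3 and the difference, 48 between the control groups, and a median of -0.24 in F3. Of 401 alternative values of the comparisons, 363 kept to within the spread between replicates or 1.5 times the count.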
